A study of Mus musculus with 21 samples.

Results

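The genes described here are 10 members of the Wnt signalling system that act outside the cell. They are the ligands Wnt4, Wnt5a and Wnt6, the secreted frizzled-related proteins Sfrp1, Sfrp2 and Sfrp4, the dickkopf genes Dkk2 and Dkk3, and the CCN family genes Wisp1 and Wisp2. They were chosen by symbol from the deposited expression table, and all 10 were found among 19285 genes with expression values. The rule itself uses symbols alone, but the set was put together with earlier results of these data known.

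RNA was sequenced from untreated primary mouse cells of the C57BL/6J strain in 7 groups of 3 libraries, 21 libraries in all. The testicular groups were peritubular myoid cells (PTM), the contractile cells around the seminiferous tubule, Sertoli cells, Leydig cells and germ cells (Germ). The smooth muscle groups were vascular (VSMC), intestinal (ISMC) and tracheal (TSMC) smooth muscle cells. All 7 groups were grown in DMEM/F12 medium with fetal bovine serum and none carried a genetic change, and neither the age of the mice nor the number of animals or cultures per group is given in the sources used here. The testicular cells were isolated by published methods, while the smooth muscle-like cells came from a company, so wherever testicular and smooth muscle groups are compared, the tissue and where the cells were obtained cannot be told apart.

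Wnt proteins are lipid-modified secreted ligands. They bind Frizzled receptors together with Lrp5 or Lrp6, which stabilises beta-catenin and switches on genes such as Axin2, or they act through Ror and Ryk receptors without beta-catenin. Secreted frizzled-related proteins carry a Frizzled-like domain that binds Wnts outside the cell, and classical dickkopf proteins block Lrp5 and Lrp6. In the mouse gonad, Wnt4 and beta-catenin signalling belong to the ovarian programme, and in smooth muscle Wnt ligands are known from growth and matrix production.

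Levels are in FPKM, a fragment count divided by transcript length and library depth, so genes can be compared per length. Inferred depth ran from 20050000 to 22450000 fragments per library, and at the median depth 1 fragment was worth 0.0096 FPKM for Wisp1 and 0.0291 FPKM for Sfrp4, the longest and the shortest transcripts of the 10. Smooth muscle libraries of 1 group lay close to each other, with a variance of 1.27 to 2.46 times sampling noise. PTM, Sertoli and Leydig libraries spread more, at 3.22 to 26.3, 3.72 to 37.0 and 26.0 to 36.1 times, and replicate 2 stood apart from replicates 1 and 3 in PTM, Sertoli and Germ. The labels do not say whether replicates came from different cultures or mice, and each p-value reflects library-to-library spread that may be technical only.

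The marker genes did not follow the labels throughout. The summed level of 7 smooth muscle and PTM markers was 3118 to 3606 FPKM in PTM, 8946 to 12170 FPKM in Sertoli libraries, 660 to 1303 FPKM in Leydig libraries and 4515 to 5142 FPKM in the 9 smooth muscle libraries. The sum of 7 Leydig markers was 2335 to 4960 FPKM in PTM, led by Insl3, 87.6 to 99.0 FPKM in Sertoli libraries and 1100 to 7206 FPKM in Leydig libraries. For 8 Sertoli markers the sum was 318 to 1002 FPKM in PTM, 406 to 648 FPKM in Sertoli libraries and 92.4 to 122 FPKM in Leydig libraries, so PTM and Sertoli overlapped. In the Leydig libraries Cyp17a1 reached at most 0.12 FPKM and Lhcgr at most 0.24 FPKM, and Amh did not exceed 0.62 FPKM in any Sertoli library. Neural crest markers (5 genes, led by Ngfr and Sox10) summed to 95.4 to 108 FPKM in ISMC and 123 to 126 FPKM in TSMC, against 5.79 to 5.9 FPKM in VSMC. The part of these markers in the results below was not tested, and in bulk RNA fewer cells of a type and less RNA per cell cannot be told apart.

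Across the groups the 10 genes fell into a few patterns of level. Wnt4 and Wnt6 were found in the testicular somatic groups (PTM, Sertoli and Leydig) and were near 0 in smooth muscle, and Dkk2 showed the opposite. Dkk3 and Wisp1 were highest in smooth muscle, Wisp2 and Sfrp1 had their highest means in Leydig cells, and Sfrp2 and Sfrp4 had theirs in PTM. In germ cells each of the 10 genes averaged under 1 FPKM, although Wisp2 reached 1.67 FPKM in 1 library. All 10 passed the filter for testing, at least 1 FPKM in at least 3 libraries. Dkk2 passed through its 9 smooth muscle libraries alone, and Wnt4 and Wnt6 through the 9 testicular somatic libraries alone, so these 3 had to differ between the 2 kinds of cells.

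**Figure D1:**
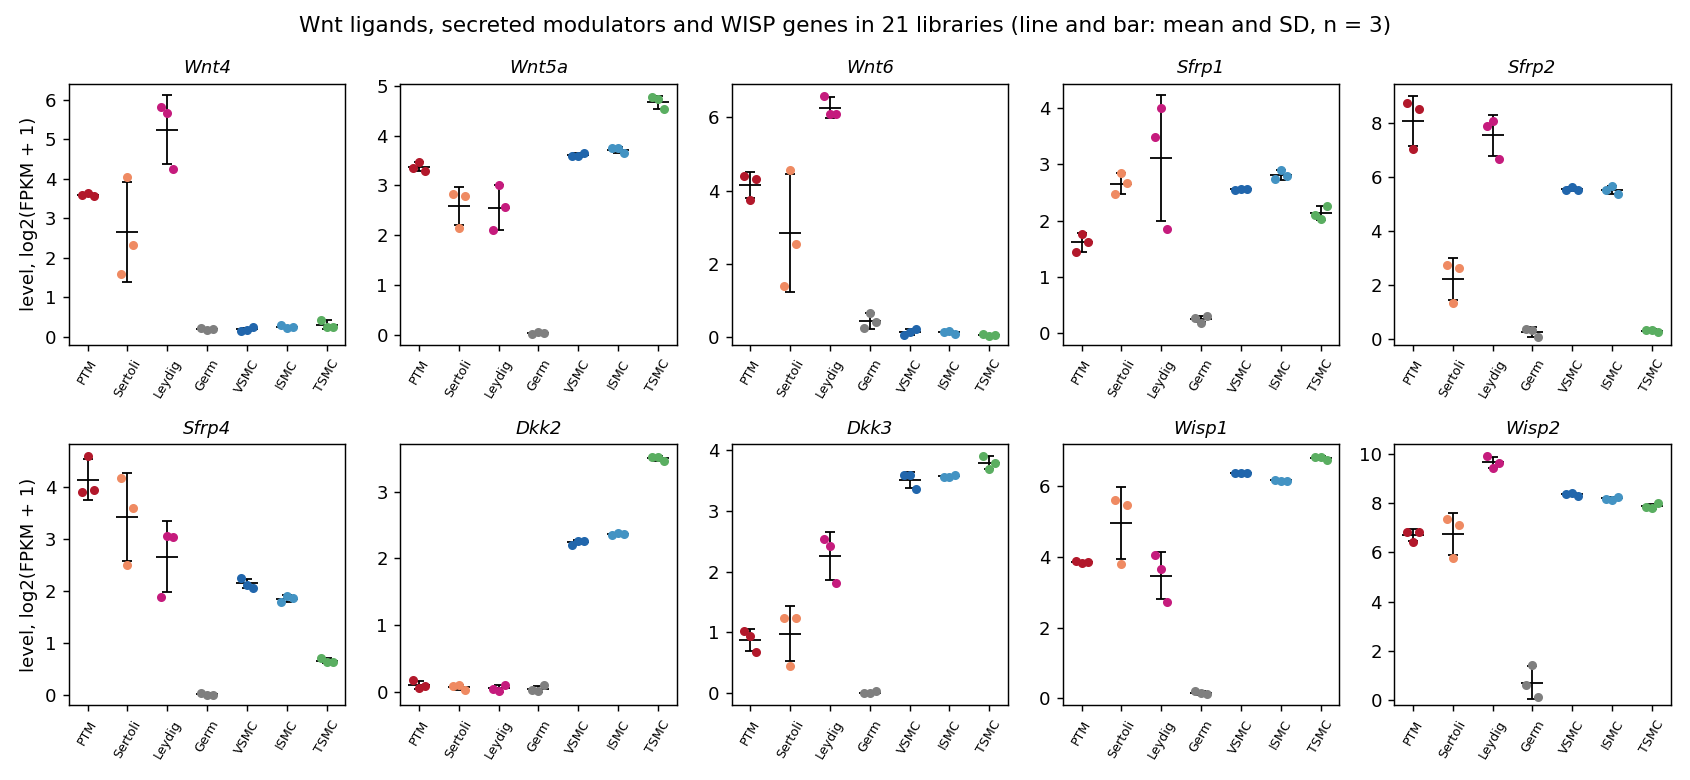
Level of each of the 10 genes, as log2(FPKM + 1), in the 3 libraries of each group (points), with the group mean (line) and SD (bar). Wnt4 and Wnt6 sit near 0 in VSMC, ISMC and TSMC, Dkk2 sits near 0 in PTM, Sertoli, Leydig and Germ, and the smooth muscle points lie closer together than the Sertoli and Leydig points.

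Wnt4, a ligand needed for kidney tubule and ovary formation in the mouse, is on chromosome 4 at 137277635-137299501 of mm10, plus strand. It stood at 11.1, 11.4 and 10.9 FPKM in PTM, 2.02, 15.5 and 3.98 FPKM in Sertoli, and 55.5, 49.97 and 18.1 FPKM in Leydig libraries. It stood at 0.16, 0.13 and 0.15 FPKM in Germ, 0.11, 0.12 and 0.18 FPKM in VSMC, 0.22, 0.17 and 0.18 FPKM in ISMC, and 0.35, 0.19 and 0.18 FPKM in TSMC. Every testicular somatic library lay above every germ and smooth muscle library, the PTM libraries were nearly alike, and Sertoli replicate 2 lay above all 3 PTM libraries. The mean over the testicular somatic groups was 19.8 FPKM, against 0.189 FPKM over the smooth muscle groups, a log2 difference of 3.59 ± 0.25 (SE, n = 9 libraries each), given as a description since the filter on low values fixed that Wnt4 differs here. All log2 differences here are on the log2(FPKM + 1) scale, which understates changes of weakly expressed genes.

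Wnt6, a ligand known from the epithelium of the developing kidney, is on chromosome 1 at 74771892-74785319, plus strand. Its levels were 19.9, 12.3 and 19.1 FPKM in PTM, 1.62, 22.8 and 4.85 FPKM in Sertoli, and 95.1, 67.3 and 67.0 FPKM in Leydig libraries. Germ libraries held 0.18, 0.59 and 0.34 FPKM, and the 9 smooth muscle libraries 0.02 to 0.17 FPKM. The groups ran in the same order as for Wnt4 at the top, with Leydig first, then PTM, then Sertoli, and Sertoli replicate 2 was again the 1 Sertoli library above PTM. Between the testicular somatic mean of 34.4 FPKM and the smooth muscle mean of 0.0833 FPKM the log2 difference was 4.3 ± 0.28 (SE, n = 9 libraries each), again as a description.

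Wnt4 and Wnt6 were each other's nearest gene in pattern among the tested genes whose highest group mean was at least 10 FPKM. Pearson's r of their log2(FPKM + 1) values was 0.988 over the 21 libraries and 0.990 over the 18 libraries without germ cells, as a description, since libraries share their group and their depth is similar. The next genes for Wnt4 were Lama1 (r = 0.988), a laminin chain of basement membranes, and Zbp1 (r = 0.982), a nucleic acid sensor. For Wnt6 they were Kcne4 (r = 0.983), a potassium channel subunit, and Tgfbr3 (r = 0.982), the co-receptor betaglycan. Wnt10a, which starts 6700 bases to the right of Wnt6 on the same strand and was singled out after its values were seen, averaged 2.80 FPKM in PTM, 1.59 FPKM in Sertoli, 4.92 FPKM in Leydig and 0.0567 to 0.223 FPKM in the other 4 groups.

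The start regions of the 2 ligands are shown because the 2 genes moved together, and those of Sfrp2 and Dkk2 further on because these genes went other ways. RefSeq promoters, on GRCm38.p6, reach from 250 bases before the start of the gene to 50 after, and 4 of the 10 genes matched the table. CpG dinucleotides are in capitals. The Wnt4 window is chr4:137277385-137277684 and the Wnt6 window chr1:74771642-74771941, both plus strand.
Wnt4: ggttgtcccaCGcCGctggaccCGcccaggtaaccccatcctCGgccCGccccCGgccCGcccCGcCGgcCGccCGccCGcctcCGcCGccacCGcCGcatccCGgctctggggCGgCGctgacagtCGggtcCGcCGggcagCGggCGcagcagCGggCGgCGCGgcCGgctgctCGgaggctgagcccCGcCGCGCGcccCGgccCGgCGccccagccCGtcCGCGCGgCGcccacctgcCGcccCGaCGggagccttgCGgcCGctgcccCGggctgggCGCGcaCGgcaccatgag
Wnt6: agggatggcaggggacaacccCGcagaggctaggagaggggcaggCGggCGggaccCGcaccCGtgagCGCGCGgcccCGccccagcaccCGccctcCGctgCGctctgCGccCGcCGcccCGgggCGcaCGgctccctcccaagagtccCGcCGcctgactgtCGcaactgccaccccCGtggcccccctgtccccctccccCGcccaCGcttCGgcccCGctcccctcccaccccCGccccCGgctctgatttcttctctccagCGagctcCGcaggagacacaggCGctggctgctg
The Wnt4 window holds 51 CpG dinucleotides and the Wnt6 window 31, against a median of 7 over all 32851 promoters in the table. As many or more were found in 0.715% of promoters for Wnt4 and in 10.6% for Wnt6. Neither window holds a core word of the TCF/LEF factors, which act with beta-catenin, searched on both strands as the word CTTTGAA, the word CTTTGAT, the word CTTTGTA or the word CTTTGTT. Of all promoters of this length 16.9% hold at least 1 of these words.

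Wnt5a, the best known ligand that acts without beta-catenin, is on chromosome 14 at 28505473-28525515, plus strand. Its levels were 9.26, 10.1 and 8.81 FPKM in PTM, 6.11, 3.42 and 5.86 FPKM in Sertoli, and 3.30, 7 and 4.89 FPKM in Leydig libraries. VSMC held 11.1, 10.99 and 11.6 FPKM, ISMC 12.5, 12.4 and 11.53 FPKM, and TSMC 26.4, 25.5 and 22.1 FPKM, while Germ libraries held 0.01 to 0.04 FPKM. TSMC libraries were the highest of all, PTM lay between the other testicular somatic groups and smooth muscle, and no PTM library overlapped any of them. PTM was lower than TSMC by a log2 difference of -1.3 ± 0.18 (SE, n = 3 each, limma adjusted p = 7.33e-06). The gaps between PTM and VSMC (-0.24), ISMC (-0.34), Sertoli (0.79) and Leydig (0.82) did not reach the size of 1 asked for a call. For Leydig this turned on Leydig replicate 2, without which the log2 difference was 1.04 (limma adjusted p = 7.88e-05). Over the testicular somatic groups together, at a mean of 6.53 FPKM against 16.0 FPKM in smooth muscle, Wnt5a was lower by -1.16 ± 0.1 (SE, n = 9 libraries each, limma adjusted p = 1.4e-08). With a pseudocount of 5 this came to -0.84, under the size asked.

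Of 19 Wnt ligand genes, 10 passed the filter. Against smooth muscle, 6 of these 10 were called higher (Wnt2, Wnt2b, Wnt4, Wnt5b, Wnt6 and Wnt10a) and 1 lower (Wnt5a) in the testicular somatic groups, with a median log2 difference of 1.06 against 0.08 for all tested genes, of which 9.87% were called higher and 6.82% lower. Weak ligands that passed the filter through testicular libraries had to be higher there, so this count does not support a direction of the list. Against Sertoli, 3 were called higher in PTM, where 3.56% of tested genes were. These were Wnt6 and the weakly expressed Wnt2 and Wnt2b, at means of 3.4 and 2 FPKM in PTM against 0.677 and 0.25 FPKM in Sertoli. Wnt2b reached 1 FPKM only in PTM and Leydig libraries, so it could not be called lower in PTM than in Sertoli. The Wnt6 call held in only 2 of the 21 fits that left out 1 library. The count against Sertoli therefore does not support a direction of the list either. Against Leydig, 2 were called lower in PTM, Wnt4 and Wnt6, where 4.57% of tested genes were. The genes listed here that are not among the 10 members are named because the counts are small, after their values were seen.

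Sfrp2, a secreted Wnt-binding protein of mesenchymal cells, is on chromosome 3 at 83766321-83774314, plus strand. Its RefSeq promoter window, chr3:83766071-83766370, is shown because Sfrp2 had the widest ratio of highest to lowest library of the 10 genes, both within the testicular somatic groups and within smooth muscle, with CpG dinucleotides in capitals.
Sfrp2: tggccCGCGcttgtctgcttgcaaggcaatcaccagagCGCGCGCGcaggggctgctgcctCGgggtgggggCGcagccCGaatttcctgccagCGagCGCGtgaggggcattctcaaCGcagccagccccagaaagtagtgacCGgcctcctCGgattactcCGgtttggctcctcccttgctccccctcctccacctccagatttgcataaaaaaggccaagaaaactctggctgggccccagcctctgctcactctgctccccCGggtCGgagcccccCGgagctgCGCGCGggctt
This window holds 22 CpG dinucleotides, a count that 23.1% of promoters reach, and none of the TCF/LEF words.

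Sfrp2 stood at 427, 130 and 364 FPKM in PTM, 5.73, 1.54 and 5.20 FPKM in Sertoli, and 235, 269 and 102 FPKM in Leydig libraries. It stood at 45.5, 49.1 and 44.6 FPKM in VSMC and 45.3, 50.2 and 41.1 FPKM in ISMC, but at 0.26, 0.28 and 0.21 FPKM in TSMC and 0.30, 0.28 and 0.05 FPKM in Germ. PTM and Leydig were thus the high groups, Sertoli cells were low among the testicular somatic groups, and TSMC was as low as Germ while the other 2 smooth muscle groups held clear levels. PTM was 73.9-fold above Sertoli in mean FPKM, a log2 difference of 5.86 ± 0.41 (SE, n = 3 each, limma adjusted p = 1.63e-08). Between PTM and Leydig the log2 difference was 0.55 ± 0.41 and was not called (SE, n = 3 each, limma adjusted p = 0.287). PTM replicate 2 was the lowest PTM library, and without it that difference was 1.08 and was called (limma adjusted p = 0.024).

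The split of Sfrp2 within smooth muscle came to a log2 difference of 5.24 between VSMC and TSMC (limma adjusted p = 2.59e-08) and of 5.21 between ISMC and TSMC (limma adjusted p = 3.44e-08), with 3 libraries in each group. The sum of 6 endothelial markers ran in the same direction, at 199 to 216 FPKM in VSMC, 190 to 201 FPKM in ISMC and 21.8 to 24.9 FPKM in TSMC. Among these markers Kdr did not, at 1.27 to 1.99 FPKM in TSMC against 1.11 to 1.48 FPKM in VSMC. In the order VSMC, ISMC and TSMC, 7 macrophage markers summed to 224 to 250, 458 to 634 and 11.7 to 13.5 FPKM. In PTM, where Sfrp2 was highest, the endothelial sum was 31.5 to 52.3 FPKM and the macrophage sum 101 to 134 FPKM. Whether cells of these types carried the Sfrp2 RNA of the smooth muscle groups was not tested.

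Sfrp4, a relative with a Frizzled-like domain known from bone, is on chromosome 13 at 19623175-19632825, plus strand. It measured 13.95, 23.2 and 14.4 FPKM in PTM, 17.1, 4.67 and 11.2 FPKM in Sertoli, and 2.68, 7.34 and 7.29 FPKM in Leydig libraries. It measured 3.76, 3.37 and 3.18 FPKM in VSMC, 2.44, 2.76 and 2.67 FPKM in ISMC, and 0.64, 0.55 and 0.55 FPKM in TSMC, and it was listed at 0.03, 0 and 0 FPKM in Germ. PTM lay above all Leydig and smooth muscle libraries and overlapped Sertoli, and TSMC was again the low smooth muscle group. PTM was higher than Leydig by 1.49 (limma adjusted p = 0.00122), than VSMC by 2 (4.81e-05 on the same test), than ISMC by 2.29 (1.24e-05) and than TSMC by 3.49 (9.08e-08), each as a log2 difference with an SE of 0.33 and n = 3 libraries per group. The difference from Sertoli was 0.72 and was not called, though without Sertoli replicate 1 it was 1.09 and was called (limma adjusted p = 0.0207).

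Sfrp1, a Wnt antagonist of many epithelia and stromal cells, is on chromosome 8 at 23411502-23449632, plus strand. PTM held 1.71, 2.41 and 2.09 FPKM, Sertoli 4.53, 6.17 and 5.31 FPKM, and Leydig 10.1, 14.97 and 2.61 FPKM. VSMC held 4.85, 4.87 and 4.92 FPKM, ISMC 5.68, 6.49 and 5.88 FPKM, TSMC 3.28, 3.06 and 3.81 FPKM, and Germ 0.14 to 0.24 FPKM. PTM lay below every Sertoli, Leydig and smooth muscle library, and Leydig replicate 3 stood far below the other Leydig libraries. PTM was lower than Sertoli by -1.04 (limma adjusted p = 0.0243), than Leydig by -1.5 (0.00112) and than ISMC by -1.2 (0.00451) as log2 differences with an SE of 0.33 and n = 3 libraries per group.

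These Sfrp1 calls lay close to the limits. The call against Sertoli ended without PTM replicate 1 (-0.96, limma adjusted p = 0.0731), PTM replicate 3 (0.0568), Sertoli replicate 2 (-0.95, 0.056) or Sertoli replicate 3 (0.0629). The call against Leydig ended when only the compared groups entered the fit (limma adjusted p = 0.0994). The difference from VSMC, -0.94, was not called, but it was called without PTM replicate 2 (-1.02, limma adjusted p = 0.0272), after quantile normalization (-1.21) and after scaling each library by its median log ratio (-1.17). With a pseudocount of 5 the differences from Sertoli (-0.55), Leydig (-0.9) and ISMC (-0.64) were all under the size asked. Between the means of all testicular somatic and all smooth muscle groups the difference was -0.04 ± 0.19 and was not called (SE, n = 9 libraries each, limma adjusted p = 0.877).

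Of 19 genes of secreted Wnt modulators, 10 passed the filter. Against smooth muscle, 3 were called higher (Sfrp2, Sfrp4 and the signalling booster Rspo1) and 4 lower (Dkk2, Dkk3, Rspo2 and Rspo3) in the testicular somatic groups. The median log2 difference was -0.5, against 0.08 for all tested genes, of which 9.87% were called higher and 6.82% lower. Rspo1 reached 1 FPKM only in Leydig libraries, and Dkk2 and Rspo2 only in smooth muscle libraries. The filter thus fixed the direction of these calls, so the count does not support a direction of the list. Frzb, a further frizzled-related antagonist, averaged 1.84 FPKM in PTM, against 12.2 FPKM in VSMC and 10.9 FPKM in ISMC, and was called lower in PTM in both comparisons (log2 differences -2.21 and -2.06). Rspo3, a further secreted booster of Wnt signalling, averaged 0.127 FPKM in PTM and 25.3 FPKM in TSMC, a log2 difference of -4.54 (limma adjusted p = 9.52e-14). Dkkl1, a dickkopf-like gene of spermatogenic cells, averaged 0.407 FPKM in PTM and 1495 FPKM in Germ.

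Dkk2, a dickkopf protein that binds Lrp5 and Lrp6, is on chromosome 3 at 132085292-132180304, plus strand. Its RefSeq promoter window, chr3:132085042-132085341, is shown because Dkk2 ran against Wnt4 and Wnt6, with CpG dinucleotides in capitals.
Dkk2: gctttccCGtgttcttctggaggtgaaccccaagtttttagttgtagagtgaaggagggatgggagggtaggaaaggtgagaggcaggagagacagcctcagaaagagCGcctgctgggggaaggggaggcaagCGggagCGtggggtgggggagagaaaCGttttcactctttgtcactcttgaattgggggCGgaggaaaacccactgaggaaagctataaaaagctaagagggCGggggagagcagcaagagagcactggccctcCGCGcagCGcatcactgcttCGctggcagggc
This window holds 11 CpG dinucleotides, a count that 41.4% of promoters reach, and no TCF/LEF word. After the sequences were seen, the word TATAAA was searched on both strands in all promoters. It begins 32 bases before the start of Dkk2 on the plus strand, it is absent from the other 3 windows, and 13.6% of all promoters hold it.

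Dkk2 stood at 0.13, 0.04 and 0.06 FPKM in PTM, 0.06, 0.07 and 0.02 FPKM in Sertoli, 0.03, 0.01 and 0.08 FPKM in Leydig and 0.02, 0.01 and 0.07 FPKM in Germ. It stood at 3.61, 3.81 and 3.80 FPKM in VSMC, 4.08, 4.18 and 4.13 FPKM in ISMC, and 10.4, 10.5 and 10.0 FPKM in TSMC. No testicular library came near any smooth muscle library, and at 0.0132 FPKM per fragment the testicular values rest on very few fragments. The testicular somatic mean was 0.0556 FPKM, against 6.06 FPKM in smooth muscle, a log2 difference of -2.62 ± 0.03 (SE, n = 9 libraries each), as a description, since Dkk2 was tested only because smooth muscle holds it. Within smooth muscle, VSMC was lower than TSMC by -1.25 (limma adjusted p = 2.82e-12) and ISMC lower than TSMC by -1.14 (1.6e-11), with n = 3 each. With a pseudocount of 5 the log2 differences of PTM from VSMC and ISMC were -0.78 and -0.85, under the size asked. Its nearest genes in pattern were Col10a1, a collagen, Grem1, a secreted antagonist of bone morphogenetic proteins, and Acta1, skeletal muscle actin, with r of 0.995 to 0.997 over 21 libraries, and all 3 had their highest mean in TSMC.

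Dkk3, a divergent dickkopf gene, is on chromosome 7 at 112116019-112159057, minus strand. It measured 1.03, 0.91 and 0.60 FPKM in PTM, 1.37, 0.37 and 1.37 FPKM in Sertoli, and 4.84, 4.36 and 2.50 FPKM in Leydig libraries, and was listed at 0, 0 and 0.02 FPKM in Germ. It measured 11.03, 11.03 and 9.26 FPKM in VSMC, 10.8, 10.8 and 11.1 FPKM in ISMC, and 13.9, 11.9 and 12.9 FPKM in TSMC. All smooth muscle libraries lay above all testicular ones, and Leydig lay above PTM and Sertoli without overlap. PTM was 15.2-fold below TSMC in mean FPKM, a log2 difference of -2.92 ± 0.19 (SE, n = 3 each, limma adjusted p = 8.14e-10), and the differences from VSMC and ISMC were -2.63 and -2.7. Against Leydig the difference was -1.38 ± 0.19 (SE, n = 3 each, limma adjusted p = 1.4e-05), or -0.6 with a pseudocount of 5, which is under the size asked. Its nearest genes in pattern over 21 libraries were Mon2 (r = 0.981), Rftn1 (r = 0.978) and Fgf7 (r = 0.977), a growth factor that stromal cells make.

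Wisp1 and Wisp2 belong to the CCN family of secreted matrix-associated proteins, and Wisp1 was named for its induction by Wnt1. Wisp1, on chromosome 15 at 66891393-66923199, plus strand, stood at 13.9, 13.2 and 13.5 FPKM in PTM, 48.2, 12.9 and 43.4 FPKM in Sertoli, 15.5, 11.52 and 5.63 FPKM in Leydig and 0.08 to 0.15 FPKM in Germ. It stood at 81.3, 82.7 and 81.3 FPKM in VSMC, 71.5, 70.3 and 70.3 FPKM in ISMC, and 112, 113 and 106 FPKM in TSMC. Every smooth muscle library lay above every testicular one, and Sertoli replicate 2 lay with the PTM libraries while Sertoli replicates 1 and 3 lay well above PTM. The testicular somatic mean was 19.7 FPKM, against 87.6 FPKM in smooth muscle, a log2 difference of -2.35 ± 0.2 (SE, n = 9 libraries each, limma adjusted p = 7.58e-09). The nearest genes in pattern were Snx30 (r = 0.987), Hs2st1 (r = 0.985), a heparan sulphate sulphotransferase, and Pmepa1 (r = 0.985), a gene that TGF-beta signalling induces.

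Wisp2, on chromosome 2 at 163820834-163833146, plus strand, had the highest level of the 10 genes in all 3 groups of smooth muscle and in Leydig cells. It stood at 114, 84.8 and 114 FPKM in PTM, 162, 53.3 and 137 FPKM in Sertoli, and 946, 694 and 778 FPKM in Leydig libraries. VSMC held 332, 334 and 311 FPKM, ISMC 287, 280 and 304 FPKM, TSMC 226, 221 and 252 FPKM, and Germ 0.55, 1.67 and 0.09 FPKM. Leydig lay above every other library, smooth muscle lay above PTM and Sertoli, and PTM lay within the Sertoli range. PTM was 7.74-fold below Leydig in mean FPKM, a log2 difference of -2.94 ± 0.32 (SE, n = 3 each, limma adjusted p = 1.1e-06). The sum of 7 fibroblast markers was highest in Leydig libraries too, at 1932 to 2443 FPKM, against 269 to 288 FPKM in PTM and 484 to 689 FPKM in Sertoli. In smooth muscle it was 1646 to 1886 FPKM in VSMC, 1522 to 1627 FPKM in ISMC and 1349 to 1408 FPKM in TSMC. Among these markers Col1a1 went the other way, at 976 to 1250 FPKM in Leydig against 1330 to 1855 FPKM in the smooth muscle libraries. The smooth muscle sums were nearly all Col1a1, so their order is that of 1 gene. Dcn ran against that order, at 2.88 to 3.75 FPKM in VSMC and 9.6 to 10.55 FPKM in TSMC. Lum and Pdgfra were also lowest in VSMC, while Cd34 was lowest in TSMC. The part of these markers in the Wisp2 level was not tested. PTM was also lower than VSMC (-1.65), ISMC (-1.48) and TSMC (-1.17), and the last of these calls ended with a pseudocount of 0.1 (limma adjusted p = 0.061).

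Of the 6 CCN genes 5 passed the filter, and against smooth muscle 2 were called lower in the testicular somatic groups, Wisp1 and Nov, where 6.82% of all tested genes were. Ctgf, a matrix and growth regulator, averaged 1098 ± 90.0 FPKM in PTM and 213 ± 64.6 FPKM in Leydig (SD, n = 3 each), a log2 difference of 2.4 (limma adjusted p = 1.25e-07). It was thus opposite in direction to Wisp2 in the same comparison. Cyr61 averaged 901 ± 119 FPKM in PTM and 3.26 ± 0.87 FPKM in Germ (SD, n = 3 each), and was called higher in PTM.

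The comparisons of PTM with each group share the same 3 PTM libraries and are given side by side. A gene was called when its Benjamini-Hochberg adjusted p over all 14444 tested genes was under 0.05 and its absolute log2 difference was at least 1. Against Sertoli, 2 of the 10 genes were called higher in PTM (Wnt6 and Sfrp2) and 2 lower (Sfrp1 and Wisp1), where 6.06% of all tested genes were called, 3.56% higher and 2.51% lower. Against Leydig, 1 was called higher (Sfrp4) and 5 lower (Wnt4, Wnt6, Sfrp1, Dkk3 and Wisp2), where 11.1% of tested genes were called, 6.53% higher and 4.57% lower. Against Germ, 8 were called higher and 0 lower, where 70.5% of tested genes were called, 42.9% higher and 27.6% lower, so a call there is common. All 10 genes averaged under 1 FPKM in Germ and passed the filter through other libraries, so none could be called lower in PTM. The direction of these calls is therefore no result about the 10 genes. Dkk2 and Dkk3 were the members without a call, and Dkk3 was called with a pseudocount of 0.1. With a pseudocount of 5 the Sfrp1 call against Germ ended (0.44, limma adjusted p = 0.055).

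Against VSMC, 4 were called higher in PTM (Wnt4, Wnt6, Sfrp2 and Sfrp4) and 4 lower (Dkk2, Dkk3, Wisp1 and Wisp2), where 19% of tested genes were called, 12.6% higher and 6.37% lower. Against ISMC the same 4 were higher, and Sfrp1 joined the 4 that were lower, where 17.7% of tested genes were called, 10.7% higher and 7% lower. Against TSMC the same 4 were higher, and Wnt5a joined the 4 that were lower, where 18.5% of tested genes were called, 11.3% higher and 7.2% lower. Between the testicular somatic and the smooth muscle means, 4 were higher and 4 lower, where 16.7% of tested genes were called, 9.87% higher and 6.82% lower. Wnt4, Wnt6 and Dkk2, which had to differ here, are among these 8. Of the other 7 genes, 2 were called higher and 3 lower in this comparison and against VSMC, and 2 higher and 4 lower against ISMC and against TSMC. Of all 10 genes, the 4 lower between the testicular somatic and the smooth muscle means were Wnt5a, Dkk2, Dkk3 and Wisp1. The 4 higher between these means were Wnt4, Wnt6, Sfrp2 and Sfrp4. Sfrp2 averaged 171 FPKM in the testicular somatic libraries, against 30.7 FPKM in smooth muscle (2.16 as a log2 difference), and Sfrp4 11.3 FPKM against 2.21 FPKM (1.86), although single libraries overlapped for both. Wisp2, high in Leydig and lower in PTM and Sertoli than in smooth muscle, was not called (-0.44). The median log2 difference of the 10 genes was -0.24 there, against 0.08 for all tested genes, since members went both ways.

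The direction split of all called genes moved with the scaling of the libraries. In the comparisons with PTM, 58.7 to 66.5% of called genes were higher in PTM, against 44.1 to 53.8% after quantile normalization and 40.2 to 53.4% after median log-ratio scaling. These shifted the median difference over all tested genes by -0.06 to -0.36 and -0.06 to -0.34 on the log2 scale. No member's call changed direction under either scaling.

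**Figure D2:**
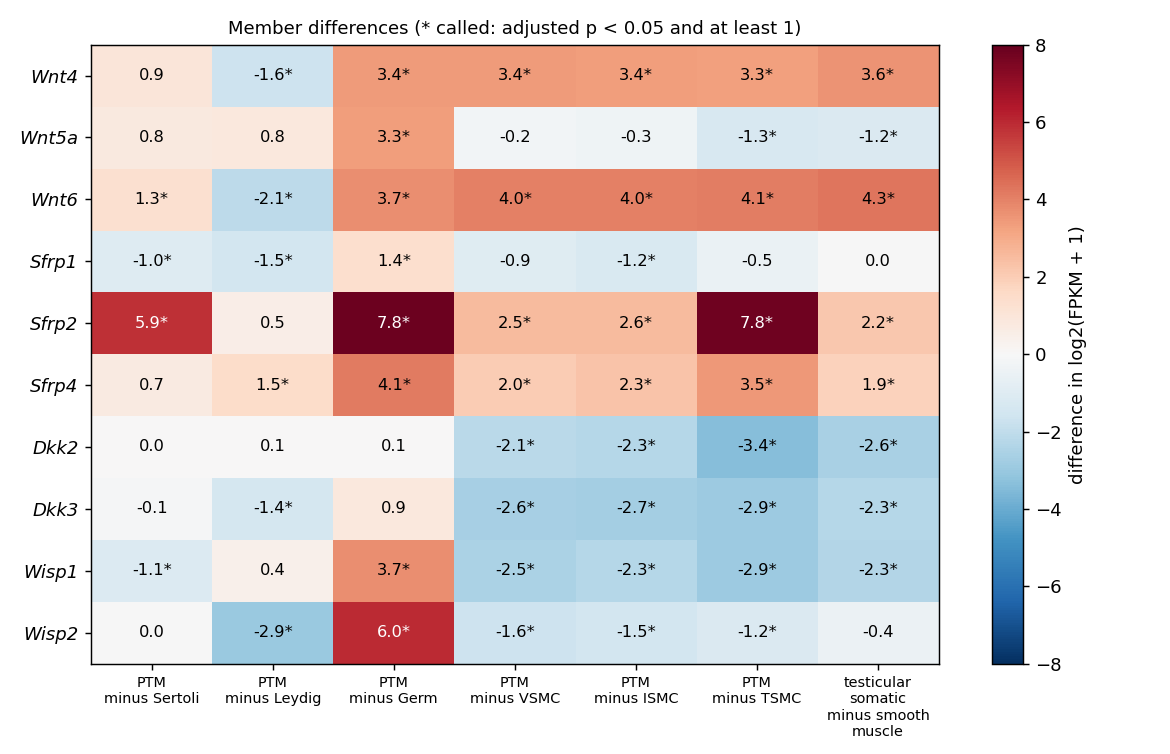
Difference in log2(FPKM + 1) of the 10 genes (rows) in the 6 comparisons with PTM and in the comparison of testicular somatic with smooth muscle groups (columns), with an asterisk where a gene was called. Wnt4, Wnt6, Sfrp2 and Sfrp4 are red and Dkk2, Dkk3 and Wisp1 are blue in all 4 columns that involve smooth muscle.

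Sertoli and Leydig cells differed in both Wnt4 and Wnt6. Between Sertoli and Leydig, 1 of the 10 genes was called higher in Sertoli (Wisp1, log2 difference 1.49, limma adjusted p = 0.00173) and 5 lower (Wnt4, Wnt6, Sfrp2, Dkk3 and Wisp2), where 12.9% of tested genes were called, 6.32% higher and 6.56% lower. The log2 difference was -2.6 for Wnt4 (limma adjusted p = 9.19e-05), -3.42 for Wnt6 (1.45e-05), -5.31 for Sfrp2 (1.32e-08), -1.28 for Dkk3 (2.84e-05) and -2.91 for Wisp2 (9.99e-07). Their libraries did not overlap for these 5 genes, but they did for Wisp1.

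Set against smooth muscle, Sertoli cells had 9 of the 10 genes called against VSMC, 9 against ISMC and 9 against TSMC, where 19.5%, 18.2% and 18.5% of tested genes were called, and the gene without a call was Sfrp1 each time. These counts include Wnt4, Wnt6 and Dkk2. Leydig cells had 8 called against VSMC, 8 against ISMC and 9 against TSMC, where 22%, 21.2% and 21.9% of tested genes were called. Sfrp2 differed in direction between the groups compared. It was lower in Sertoli than in VSMC (-3.32, limma adjusted p = 1.86e-06), and higher in Leydig than in VSMC (1.98, 0.000391), while against TSMC it was higher both in Sertoli (1.92, 0.000578) and in Leydig (7.23, 7.08e-11). Wisp2 stood at -1.61 between Sertoli and VSMC (limma adjusted p = 0.000306) and at 1.29 between Leydig and VSMC (0.00193). Wnt5a was lower in Sertoli than in VSMC (-1.03) and in Leydig than in VSMC (-1.06), 2 calls just past the size asked. These pairs share libraries with the comparisons above, and each was fitted once, without alternatives.

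The 3 smooth muscle groups were set against each other too. Between VSMC and ISMC limma called 0 of the 10 genes, and 1 (Dkk2) had an unadjusted p under 0.05, where 0.831% of tested genes were called. Between VSMC and TSMC 4 were called (Sfrp2 and Sfrp4 higher, Wnt5a and Dkk2 lower), against 4.58% of tested genes, 2.1% higher and 2.48% lower. Between ISMC and TSMC 3 were called (Sfrp2 and Sfrp4 higher, Dkk2 lower), against 4.17% of tested genes, 2.73% higher and 1.43% lower, and Wnt5a, at -0.96, was just under the size asked.

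Several calls between PTM and Sertoli ended when single libraries of either group were left out. Within Sertoli, replicate 2 stood apart from replicates 1 and 3. It was the highest Sertoli library for Wnt4, Wnt6, Sfrp1 and, at traces, Dkk2, and the lowest for Wnt5a, Sfrp2, Sfrp4, Dkk3, Wisp1 and Wisp2. Other genes moved with it. The Sertoli marker sum was 648 FPKM in replicate 2, against 455 and 406 FPKM in replicates 1 and 3, the fibroblast marker Dcn was at 84.8 FPKM, against 18.9 and 30.8 FPKM, and the macrophage sum was 31.5 FPKM, against 6.26 and 10.6 FPKM. Not all markers of these lists rose. The Sertoli markers Sox9 (43.05 FPKM, against 56.81 and 47.26) and Aard (29.77 FPKM, against 64.11 and 58.76) were lowest there. So was the fibroblast marker Col1a1, at 370 FPKM against 648 and 608 FPKM. Their part in the member values was not tested.

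Without Sertoli replicate 2 the log2 difference of Wnt4 between PTM and Sertoli was 1.65 and was called (limma adjusted p = 6e-04), against 0.95 with it (0.115). For Wnt6 it was 2.18 (limma adjusted p = 6.74e-06), against 1.31 with all libraries (0.0488). The Wnt6 call with all libraries held in 2 of the 21 fits that left out 1 library, those without Sertoli replicate 2 and without Leydig replicate 1. In the other 19 it ended, at adjusted p of 0.0507 to 0.297 and log2 differences down to 0.59. For Wisp1, PTM was lower than Sertoli by -1.1 (limma adjusted p = 0.0236), and by -1.68 without Sertoli replicate 2. That call ended without PTM replicate 2 (0.0586), PTM replicate 3 (0.0573), Sertoli replicate 1 (-0.77, 0.135) or Sertoli replicate 3 (-0.85, 0.123), and when only the 2 groups entered the fit (0.212).

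With replicate number as a block in a fit of PTM and Sertoli alone, Wnt6 (limma adjusted p = 0.384) and Wisp1 (0.201) were not called and 2 of the 10 genes were, Sfrp1 and Sfrp2. Without the block, the fit of these groups alone likewise called 2 of the 10, with Wnt6 at an adjusted p of 0.34 and Wisp1 at 0.212, and the block on all 21 libraries called 3, with Wnt6 at 0.0581. The number of all tested genes called was 551 with the block and 679 without it in the fit of PTM and Sertoli alone, against 867 with the block and 876 without it in the fit of all groups. The authors' deposited log2 fold changes, which run Sertoli over PTM, are -0.64 for Wnt4 (DEGseq q value 7.14e-43) and -0.82 for Wnt6 (7.97e-54). They come from another test and are not on the log2(FPKM + 1) scale, so neither sizes nor q values compare directly with the values above.

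**Figure D3:**
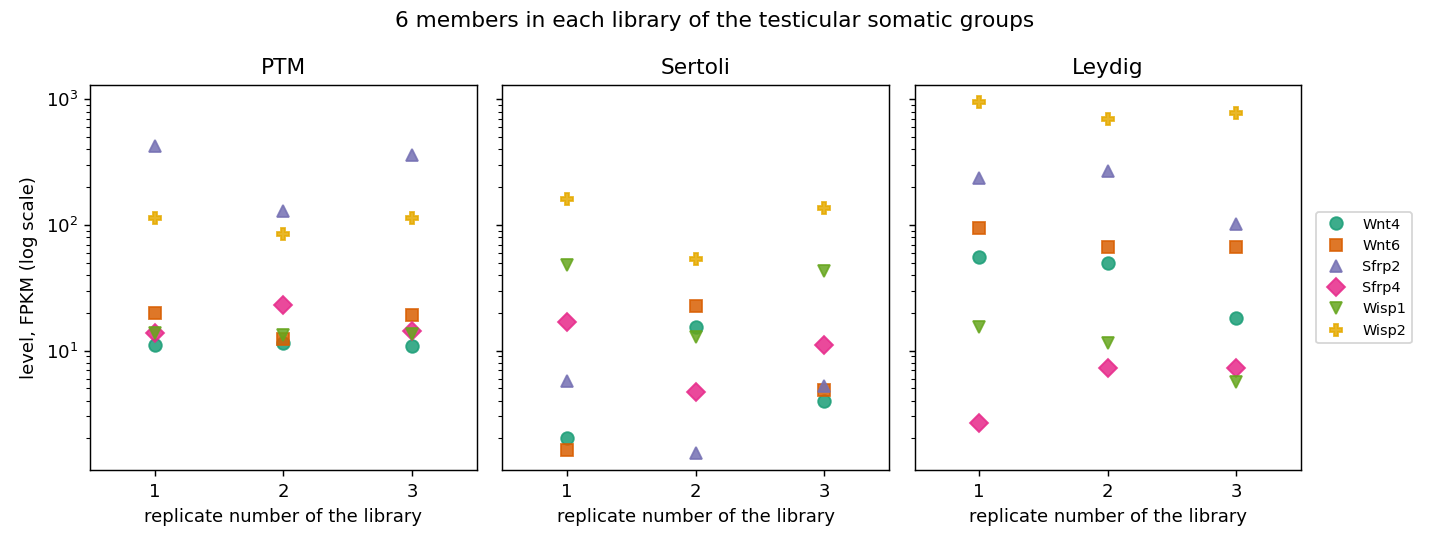
Level in FPKM on a log scale of 6 of the genes (symbols) in each of the 3 libraries of PTM, Sertoli and Leydig cells, by replicate number. In Sertoli replicate 2, Wnt4 (15.5 FPKM) and Wnt6 (22.8 FPKM) are high and Sfrp2 (1.54 FPKM), Sfrp4 (4.67 FPKM), Wisp1 (12.9 FPKM) and Wisp2 (53.3 FPKM) low against replicates 1 and 3.

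Among PTM libraries, replicate 2 was the lowest for Sfrp2, Wnt6 and Wisp2 and the highest for Sfrp4. Its Insl3 level was 2040 FPKM, against 4368 and 4532 FPKM in PTM replicates 1 and 3, and its Sertoli marker sum was 1002 FPKM, against 318 and 450 FPKM. Of the other Leydig markers, Cyp11a1 and Hsd3b1 were lowest there too, but Star was highest, at 79.67 FPKM against 77.69 and 61.96 FPKM. The Sertoli markers Gata4 (58.63 FPKM, against 56.51 and 57.18) and Aard (22.42 FPKM, against 22.98 and 19.57) did not follow the Sertoli sum. These are the markers set beside the member values here. Their part in the member values was not tested. Without PTM replicate 2 the log2 difference of Sfrp2 between PTM and Sertoli was 6.38.

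The rest of the pathway was read from gene lists. Of 25 genes of Wnt secretion and receptors, 21 passed the filter. In the testicular somatic groups 1 was called higher than in smooth muscle and 3 lower (Fzd6, Fzd7 and Kremen1), a share near the 16.7% of all tested genes called in either direction, so the count says nothing particular about the list. The higher one was Porcn, the enzyme that attaches the lipid to Wnt proteins. It stood at 43.5, 17.4 and 39.0 FPKM in PTM, 5.77, 4.34 and 4.50 FPKM in Sertoli, 39.2, 58.3 and 53.0 FPKM in Leydig and 1.28 to 4.14 FPKM in the 9 smooth muscle libraries. Like Sfrp2, Porcn was thus high in PTM and Leydig and low in Sertoli cells. PTM exceeded Sertoli by a log2 difference of 2.45 ± 0.24 (SE, n = 3 each, limma adjusted p = 7.37e-07).

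Fzd7, a Wnt receptor, averaged 7.62 FPKM in the testicular somatic groups, with Leydig cells lowest at 2.77 FPKM, against 25.9 FPKM in smooth muscle (log2 difference -1.8, limma adjusted p = 7.26e-16). Kremen1, a receptor for dickkopf proteins, averaged 7.53 FPKM, against 19.4 FPKM (-1.26, limma adjusted p = 1.37e-13), and with a pseudocount of 5 its difference was under the size asked. Smooth muscle, the side with higher Dkk2, was thus also the side with higher Kremen1. Against Leydig, 3 genes of this list were called higher in PTM (Fzd6, Fzd7 and Rnf43) and 2 lower, where 6.53% of tested genes were called higher and 4.57% lower. The lower ones were Ptk7 (-1.35) and Fzd1 (-1.18), a Wnt co-receptor and a Wnt receptor, though neither reached the size asked with a pseudocount of 5. Wls, the carrier that brings Wnts to the cell surface, averaged 102 FPKM in PTM and 208 FPKM in VSMC (-1.02), a call that ended without PTM replicate 1.

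All 18 listed intracellular transducers passed the filter, and 2 were called higher (Tcf7 and Bcl9) and 1 lower (Apc2) in the testicular somatic groups against smooth muscle, with a median log2 difference of -0.11 against 0.08 for all tested genes. These 3 of 18 are no larger a share than the 16.7% of all tested genes called there. Bcl9, a partner of beta-catenin, averaged 11.49 FPKM, against 4.37 FPKM in smooth muscle (1.22), a difference under the size asked with a pseudocount of 5 (0.81). Of 9 planar polarity genes, 7 passed, and 2 were called higher against smooth muscle, Daam2 and Prickle1, where 9.87% of tested genes were, and the median log2 difference of the list was -0.04. Daam2, a formin-related protein, stood at 14.3, 41.6 and 21.1 FPKM in PTM, against 0.88, 1.80 and 1.18 FPKM in Leydig. The log2 difference was 3.43 (limma adjusted p = 6.54e-07), and PTM replicate 2 was the highest PTM library. Lef1, a transcription factor of the pathway, averaged 0.163 FPKM in PTM and 44.3 FPKM in Germ.

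Of 15 genes often used as readouts of beta-catenin signalling, 11 passed the filter. Of these, 5 were called higher (Axin2, Myc, Nkd1, Apcdd1 and Tcf7) and 3 lower (Ccnd1, Nkd2 and Sp5) in the testicular somatic groups against smooth muscle. The median log2 difference was 0.44, against 0.08 for all tested genes, of which 9.87% were called higher and 6.82% lower. Axin2 and Nkd1 reached 1 FPKM only in testicular somatic libraries and Sp5 only in smooth muscle libraries. The filter thus fixed the direction of these calls, so the count does not support a direction of the list. Axin2, the most used gene of the list, stood at 11.1, 10.1 and 10.8 FPKM in PTM, 11.6, 16.2 and 12.1 FPKM in Sertoli, and 14.2, 12.4 and 8.28 FPKM in Leydig libraries. It stood at 0.06 to 0.33 FPKM in the 9 smooth muscle libraries and 0.2 to 0.27 FPKM in Germ. Axin2 was thus present in the same 3 groups as Wnt4 and Wnt6, with a log2 difference from smooth muscle of 3.45 ± 0.08 (SE, n = 9 libraries each). This is given as a description, since Axin2 too passed the filter through testicular somatic libraries alone and had to differ here. Between the testicular somatic groups Axin2 was not called, at means of 10.7 FPKM in PTM, 13.3 FPKM in Sertoli and 11.6 FPKM in Leydig, whereas both ligands were called lower in PTM than in Leydig.

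Ccnd1, the cyclin D1 gene, went the other way. It averaged 11.9 FPKM in the testicular somatic groups, against 156 FPKM in smooth muscle, a log2 difference of -3.75 ± 0.11 (SE, n = 9 libraries each, limma adjusted p = 2.47e-15). Myc averaged 62.8 FPKM, against 25.9 FPKM (1.2, limma adjusted p = 5.49e-08), and its calls in PTM against VSMC and ISMC ended under both scalings of the libraries and against TSMC under median log-ratio scaling. Nkd2, an inhibitor that the pathway induces, averaged 0.883 FPKM in PTM, against 17.8 FPKM in ISMC and 34.8 FPKM in TSMC, and was called lower in PTM in both. Apcdd1, also an inhibitor, averaged 5.16 FPKM in PTM and 16.2 FPKM in Sertoli (-1.47, limma adjusted p = 3.57e-07), and Nkd1 averaged 1.39 FPKM in PTM and 13.8 FPKM in Leydig (-2.57, limma adjusted p = 6.22e-08). Genes of this list thus went in both directions within the same comparison.

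**Figure D4:**
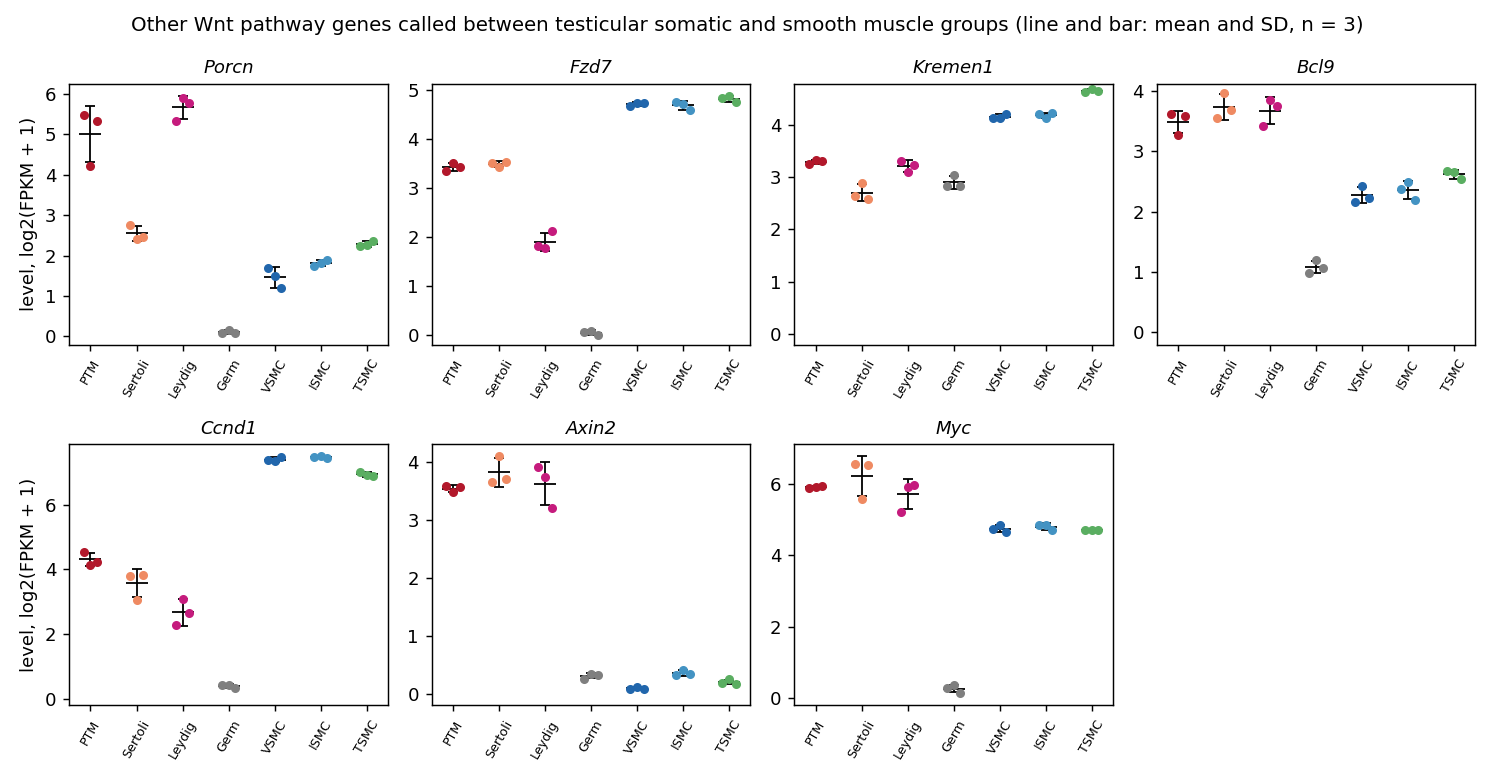
Level, as log2(FPKM + 1), of 7 other Wnt pathway genes that were called between testicular somatic and smooth muscle groups, in the 3 libraries of each group (points) with mean (line) and SD (bar). Porcn, Bcl9, Axin2 and Myc are higher in PTM and Leydig than in the smooth muscle groups, and Fzd7, Kremen1 and Ccnd1 are lower.

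The remaining members had these nearest genes in pattern over the 21 libraries. For Sfrp2 they were Rarres1 (r = 0.915), Aldh1a7 (0.914) and Tspan8 (0.913). For Sfrp4 they were Nt5e (0.933), an enzyme of the cell surface that makes adenosine, Nmt2 (0.926) and Med21 (0.919). For Sfrp1 they were Plat (0.952), tissue plasminogen activator, and the collagen VI genes Col6a1 (0.918) and Col6a2 (0.916), whose r fell to 0.746 and 0.749 over the 18 libraries without germ cells. For Wnt5a they were Tns3 (0.979), Itgb5 (0.978) and Rasgrp3 (0.978), and for Wisp2 they were Cxcl12 (0.988), Pdia3 (0.987) and Serpinf1 (0.984). For Wnt5a and Wisp2 the germ libraries, where levels were lowest, add to these values, which ran from 0.899 to 0.954 without them. Values were also lower without germ libraries for Sfrp2 and Sfrp4, at 0.869 to 0.925, and for the genes nearest to Wisp1, at 0.958 to 0.966.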

How the data were processed

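Total RNA of 21 libraries was sequenced with the provider's library protocol, per the labels. Per the submitters' processing notes, the tools were HISAT2 2.0.4, Bowtie2 2.2.5 and RSEM 1.2.12 with mm10 and the authors deposited FPKM per gene and library. The deposited log2 fold changes (other group over PTM) and DEGseq q values are the authors' and are quoted once, in a sentence that names them. Symbols changed to dates by a spreadsheet were restored for 27 genes through gene IDs. One column of group means with no matching sample (1 in all) was not used.

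Here, limma 3.58.1 in R 4.3.3 was fitted to log2(FPKM + 1) of the 14444 genes that reached 1 FPKM in 3 or more libraries, with 7 group means, eBayes moderation along a trend with mean level, and 14 degrees of freedom for the residuals. Differences are the first-named group minus the second, and p-values were adjusted over all 14444 genes. Fragments per library were inferred from the steps of low FPKM values, of which 84.3 to 90.8% came out whole within 0.2. These steps are not exact enough for a count test. The procedure was also run on simulated data in which each gene had the same spread in all groups. That run therefore does not cover the unequal spread between groups seen here.

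Replicate numbers are shared by all groups. For PTM and Sertoli the same-numbered libraries deviated together, with correlations of 0.227, 0.25 and 0.103, the only 1 of 21 pairs with all 3 over 0.1, so a fit that adds the replicate block is given beside the results it changes. The closing section gives 33 alternatives. Each changed 1 choice, except that the block was also combined with a fit of the compared groups only and that 1 setting left out 3 libraries together.

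The members and the lists of pathway and marker genes were chosen with earlier results of these data known. All 10 members are described. Other listed genes are named where they were called, their libraries did not overlap and the higher group reached 10 FPKM, at most 4 per list and comparison. Beyond that rule, genes behind a small count are named, as chosen after their values were seen. For each member the 3 genes of highest Pearson correlation over 21 libraries are given. RefSeq promoter sequences were matched by gene ID.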

Additional observations from a re-analysis of the deposited data

How the results depend on the processing

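Of 70 values (10 genes in 7 comparisons), 39 were called and 12 were not called in the main setting and in all 33 alternatives, 19 changed their call in at least 1, and 0 changed direction. Of 61 values of other pathway genes, 49 had the same call throughout. With a pseudocount of 0.1 the count of all genes called was 1480 in PTM against Sertoli, rather than 876, and 2497 against Leydig, rather than 1603. With a pseudocount of 5 it was 419 (Sertoli), 761 (Leydig), 1390 (VSMC, rather than 2743), 1268 (ISMC, rather than 2550), 1327 (TSMC, rather than 2677) and 1185 between testicular somatic and smooth muscle groups (rather than 2410), and 1 of the 10 genes was called between PTM and Sertoli, rather than 4. A larger pseudocount shrinks each log2 difference of weakly expressed genes by construction. With only the compared groups in the fit, 2 of the 10 genes were called between PTM and Sertoli. With replicate number as a block and only the compared groups, 551 genes and 2 of the 10 were called between PTM and Sertoli. Against Leydig that block gave 1060 genes and 3 of the 10, with Wnt4, Sfrp1 and Sfrp4 past 0.05 (limma adjusted p = 0.067, 0.12 and 0.0503), though numbers do not pair these groups. Leaving out 1 library gave 1 to 4 of the 10 genes called between PTM and Sertoli and 784 to 1143 of all genes. The cause of the other changes was not tested. The fit with library weights did not reach its convergence tolerance, so no p of it is given. Leaving out the second libraries of PTM, Sertoli and Germ together was chosen after seeing the data. In that setting Wnt4 was called between PTM and Sertoli (1.63, limma adjusted p = 0.00347) and Sfrp2 between PTM and Leydig (0.00544). Pairs of groups other than those with PTM were fitted once. Values under about 0.1 FPKM, such as Dkk2 in testicular cells, rest on a few fragments, and 3 libraries per group limit the precision of every difference.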
